A study of Mus musculus with 10 samples.

Results

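Pax3, Zic1, Foxd1, Foxc1, Tfap2a, Msx1 and Msx2 are transcription factor genes of the neural plate border and neural crest, and their levels were followed through the reprogramming of mouse fibroblasts. The members were chosen by their measured levels, because several were dim in both groups of induced pluripotent stem cells (iPSC) and on in cells at day 32. Every probe set whose only gene symbol is one of the 7 was taken, which gave 12 of the 22690 probe sets on the array, for 7 of the 12393 genes with such a probe set. The tests took 11 of them, those with a log2 value over 4 on 2 or more arrays, and left out a Msx1 probe set (1448601_s_at). The difference between iPSC and day 32 cells is therefore a description here and carries no test.

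The study measured polyA RNA on 10 Affymetrix arrays, in 5 groups of 2. Established iPSC had been kept in 2i/serum, a medium that blocks MEK and GSK3 kinases, or together with MEFs (mouse embryonic fibroblasts). The other 3 groups were secondary MEFs, which carry inducible Yamanaka factors (Pou5f1, Sox2, Klf4 and Myc), after these factors had been on for 32 days. They were a day 32 sample with no fraction named, and the Sox2-positive and Sox2-negative fractions, sorted as the title says by RNA FACS, in which cells are separated by an RNA they hold. The labels give no strain, no age of the embryos, and no statement on whether MEFs were removed from the co-cultured iPSC or whether replicates a and b were separate cultures. The p-values therefore measure only the spread between these samples, which may be technical. Sox2 itself read 9.46 and 10.45 on the Sox2-positive arrays and 4.45 and 4.13 on the Sox2-negative arrays, as the labels of the fractions say. In a sample of bulk RNA, fewer cells that hold a transcript and less transcript per cell cannot be told apart.

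The arrays fall in 2 classes that cut across iPSC and day 32 cells. The 3' control probe set for 18S ribosomal RNA read 11.35 to 13.22 on the arrays of iPSC with MEFs and of both fractions, and 5.25 to 6.55 on those of iPSC in 2i/serum and the day 32 sample. The median of the probe sets over the filter was 5.87 to 6.15 in the former and 7.22 to 7.26 in the latter. The labels name 2 amplification kits without saying which sample had which. The fractions lie in 1 class and can be compared within it, while class and group cannot be told apart where the day 32 sample is set against a fraction.

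In the vertebrate embryo, the neural crest arises at the border between the neural plate and the surface ectoderm, under BMP, Wnt and FGF signals. Border factors (Pax3, Zic1, Msx1, Msx2 and Tfap2a) come on first and act on the crest specifiers, and crest cells then leave the neural tube and form pigment cells, peripheral neurons and glia, and much of the skeleton and connective tissue of the face. Several of the factors have other uses: Pax3 also marks the muscle progenitors of the somite, Foxc1 and Foxd1 are active in mesenchyme such as the kidney stroma, and Tfap2a acts in the surface ectoderm. Embryonic fibroblast cultures are mixed and can hold cells derived from the crest.

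RefSeq's promoter table (build GRCm38.p6) held 7 starts for 6 of the 7 genes, all but Pax3. The 250 bases before the start are shown for 4 genes that were low together in the Sox2-positive fraction, so that a reader can compare their base composition. They lie at chr9:91365769-91366018 on the minus strand (Zic1), chr13:98353995-98354244 on the plus strand (Foxd1), chr13:31806396-31806645 on the plus strand (Foxc1) and chr13:40734921-40735170 on the minus strand (Tfap2a, the more upstream of 2 listed starts). Each runs 5' to 3'. Capitals mark matches, on either strand, to GCCNNNGGC, which AP-2 factors such as Tfap2a bind, and to CAATTA, a homeodomain site of the kind Msx factors bind.
Zic1: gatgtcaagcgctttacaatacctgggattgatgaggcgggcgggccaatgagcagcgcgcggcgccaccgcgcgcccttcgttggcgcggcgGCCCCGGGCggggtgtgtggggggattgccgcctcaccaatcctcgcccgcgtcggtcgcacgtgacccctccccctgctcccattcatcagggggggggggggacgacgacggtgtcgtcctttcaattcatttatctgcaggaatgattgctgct
Foxd1: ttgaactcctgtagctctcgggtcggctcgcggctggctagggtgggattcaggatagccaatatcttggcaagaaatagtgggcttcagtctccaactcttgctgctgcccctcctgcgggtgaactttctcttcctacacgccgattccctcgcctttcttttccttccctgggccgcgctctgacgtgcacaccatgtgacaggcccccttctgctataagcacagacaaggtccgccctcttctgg
Foxc1: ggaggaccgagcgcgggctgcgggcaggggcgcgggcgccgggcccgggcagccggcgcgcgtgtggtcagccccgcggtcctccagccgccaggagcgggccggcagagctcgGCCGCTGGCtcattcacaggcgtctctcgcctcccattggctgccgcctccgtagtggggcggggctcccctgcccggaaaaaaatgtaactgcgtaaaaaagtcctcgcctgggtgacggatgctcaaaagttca
Tfap2a: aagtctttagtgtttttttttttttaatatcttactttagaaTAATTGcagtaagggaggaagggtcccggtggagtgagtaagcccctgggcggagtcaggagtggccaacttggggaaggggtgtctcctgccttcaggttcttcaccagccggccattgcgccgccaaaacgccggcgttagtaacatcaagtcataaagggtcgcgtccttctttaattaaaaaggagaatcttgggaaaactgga

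The AP-2 letters occurred once each before Zic1 and Foxc1, and in 13.7% of the 32851 promoters of this length in the table. The homeodomain letters occurred once, before the upstream start of Tfap2a, against 7.17% of all promoters. None of the 7 windows held GTAAACA (Fox factors, 3.17% of all), GTCACGC (the paired domain of Pax factors, 1.78%) or CAGCAGG (Zic factors, 8.44%). The CpG count was 29 before Foxc1, 27 before Zic1, 20 before Msx1, 16 before Msx2, 12 before Foxd1 and 10 before either start of Tfap2a, where the median promoter holds 6. Windows with at least as many CpG as that of Foxc1 made up 6.78% of all, and 37.8% had at least as many as those of Tfap2a. Foxd1, Foxc1, Tfap2a and Msx2 lie on the same chromosome, 13.

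**Figure D1:**
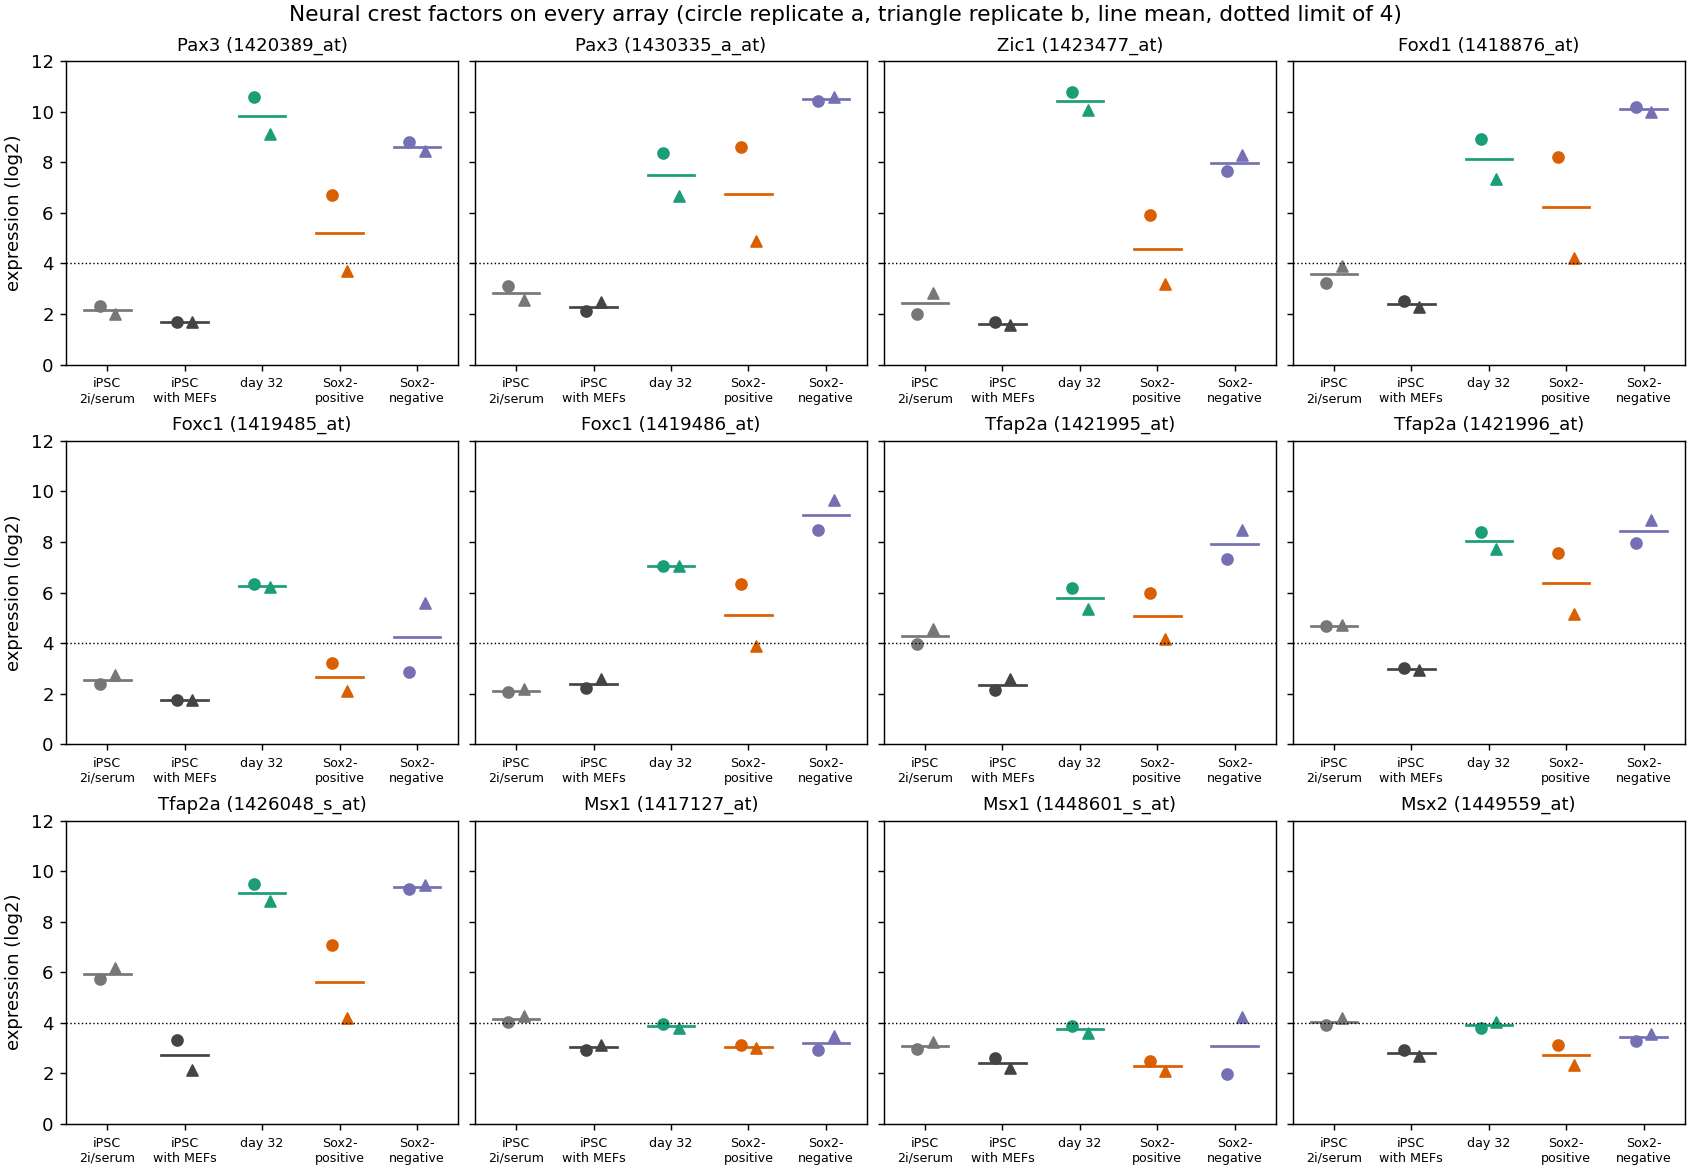
Deposited log2 expression (y axis) of the 12 probe sets on every array, by group (x axis), with circles for replicate a, triangles for replicate b, a line for the mean of the 2 arrays and a dotted line at the limit of 4. In the panels of Pax3, Zic1, Foxd1, Foxc1 and Tfap2a the Sox2-positive circle lies above the triangle, as for Foxd1 at 8.22 against 4.21, while the 3 Msx panels stay near or under the limit.

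Pax3, a paired box factor of the dorsal neural tube, was dim on every iPSC array and above 4 on all day 32 arrays except that of Sox2-positive replicate b by 1 probe set. By probe set 1420389_at it read 2.33 and 1.98 in iPSC in 2i/serum, 1.67 and 1.69 with MEFs, 10.57 and 9.11 at day 32 without a fraction named, 6.72 and 3.68 in the Sox2-positive fraction, and 8.80 and 8.43 in the Sox2-negative fraction. By probe set 1430335_a_at it read, in the same order, 3.09 and 2.55, 2.10 and 2.46, 8.36 and 6.66, 8.59 and 4.89, and 10.43 and 10.59. Both probe sets had all 6 arrays of day 32 cells above all 4 iPSC arrays, and Sox2-positive replicate b was the lowest of these 6 in both. The mean of the Sox2-negative fraction was at least 24.5-fold above iPSC by the former and at least 91.1-fold by the latter, since an iPSC value under 4 gives only a limit.

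Zic1, a zinc finger factor of the neural plate border, was above the limit on only 1 of the 2 Sox2-positive arrays. It read 2.01 and 2.82 in iPSC in 2i/serum, 1.67 and 1.55 in those with MEFs, and 10.76 and 10.07 in the day 32 sample, with 5.90 and 3.20 in the Sox2-positive fraction and 7.65 and 8.30 in the Sox2-negative fraction. The 2 arrays of each group lay clear of those of the next group in the order of the means, from the day 32 sample down through the Sox2-negative and Sox2-positive fractions to iPSC. Each step of this order crosses the array classes, except that between the fractions. With each array centred on its median, the day 32 sample was 1.105 log2 units above the Sox2-negative fraction, in place of 2.44.

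Foxd1, a forkhead factor of stromal progenitors and of the developing retina, read 3.24 and 3.88 in iPSC in 2i/serum, 2.53 and 2.28 in those with MEFs, 8.92 and 7.33 in the day 32 sample, 8.22 and 4.21 in the Sox2-positive fraction, and 10.20 and 9.99 in the Sox2-negative fraction. The Sox2-positive arrays overlapped those of the day 32 sample, and the Sox2-negative arrays were above all others.

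Foxc1, a forkhead factor of mesenchyme around the eye and in the skull, was followed by a pair of probe sets. Probe set 1419486_at read 2.05 and 2.17 in iPSC in 2i/serum, 2.22 and 2.58 in those with MEFs, 7.04 and 7.04 in the day 32 sample, 6.33 and 3.88 in the Sox2-positive fraction, and 8.46 and 9.65 in the Sox2-negative fraction. Probe set 1419485_at was under 4 on both Sox2-positive arrays (3.23 and 2.12) and on 1 Sox2-negative array (2.87, the other at 5.60), with 6.32 and 6.22 in the day 32 sample and at most 2.73 in iPSC. The day 32 sample was thus the highest group by this probe set and the Sox2-negative fraction by the other.

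Tfap2a, the AP-2 alpha gene of the neural plate border and surface ectoderm, was the only one of these 5 genes with iPSC arrays above 4, all of them in 2i/serum. Probe set 1426048_s_at read 5.74 and 6.15 there, 3.31 and 2.13 in iPSC kept with MEFs, 9.47 and 8.82 in the day 32 sample, 7.06 and 4.18 in the Sox2-positive fraction, and 9.31 and 9.45 in the Sox2-negative fraction. Sox2-positive replicate b thus lay below both arrays of iPSC in 2i/serum, across the array classes, and replicate a above them. Probe set 1421996_at read 4.67 and 4.70 in 2i/serum and 3.0 and 2.95 with MEFs, against 8.39 and 7.71, 7.57 and 5.15, and 7.95 and 8.88 in the day 32 sample and the Sox2-positive and Sox2-negative fractions. Probe set 1421995_at read 3.98 and 4.55, 2.15 and 2.57, 6.17 and 5.36, 6.0 and 4.16, and 7.33 and 8.48 in the same order.

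Msx1 and Msx2, homeobox genes that BMP signals induce at the border, went against the choice of the members, since they stayed near or under the limit in every group. Msx1 ranged from 2.92 to 4.25 over all arrays by probe set 1417127_at and its highest values, 4.02 and 4.25, were those of iPSC in 2i/serum. By 1448601_s_at its sole value over 4 was 4.24 in Sox2-negative replicate b, against 1.96 in replicate a. Msx2 ranged from 2.32 to 4.18. No value of day 32 cells exceeded the highest iPSC value by 1417127_at or for Msx2. The members that were dim in iPSC and on at day 32 are thus Pax3, Zic1, Foxd1 and Foxc1, with Tfap2a dim in iPSC with MEFs alone.

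The comparison of the Sox2 fractions was not itself used to choose the members and lies inside an array class. It asks whether the border factors stood in the day 32 cells that had gained Sox2 RNA or in those that had not. Its direction is not independent of the choice, since the members were chosen as dim in iPSC and the Sox2-positive fraction was nearer to iPSC. The mean of 12 naive pluripotency genes was 9.33 and 9.51 in that fraction, 10.49 to 10.98 in iPSC, and 4.59 and 4.98 in the Sox2-negative fraction. All 5 genes that were on at day 32 were lower in the Sox2-positive fraction by at least 1 probe set, at an adjusted p under 0.05 from limma over the 14012 probe sets tested. Of the 11 member probe sets, 7 were called lower and 0 higher, where 11.3% of all probe sets were called and 5.07% were called lower. The median difference was -3.42 log2 units over the 11 and -0.015 over all probe sets tested. The 2 arrays of each fraction did not overlap for 9 of the 11, as for 50% of all probe sets.

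Foxc1 differed by -3.95 (SE 0.68), which is 15.5-fold lower in the Sox2-positive fraction (5.11 against 9.06, adjusted p = 0.00834, probe set 1419486_at). Foxd1 was 14.7-fold lower (-3.88, SE 1.04, adjusted p = 0.0438). Pax3 was 10.7-fold lower by 1420389_at (-3.42, SE 0.82, adjusted p = 0.0308) and 13.6-fold by 1430335_a_at (-3.77, SE 0.98, adjusted p = 0.0400). Zic1 was 10.7-fold lower (-3.43, SE 0.73, adjusted p = 0.0195), with 3.20 in Sox2-positive replicate b. For Zic1, Pax3 by 1420389_at (3.68) and Foxc1 by 1419486_at (3.88), the fold rests partly on a value under 4 in that replicate. Tfap2a was 13.5-fold lower by 1426048_s_at (-3.76, adjusted p = 0.0179) and 7.09-fold by 1421995_at (-2.83, adjusted p = 0.0203). Its probe set 1421996_at had a difference of -2.06 (95% interval -3.54 to -0.57) that missed the threshold (adjusted p = 0.0772).

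The other Foxc1 probe set, 1419485_at, had a difference of -1.56 (95% interval -3.19 to 0.07, adjusted p = 0.199), with overlapping arrays. Msx1 differed by -0.13 (-0.73 to 0.47, adjusted p = 0.802) and Msx2 by -0.71 (-1.41 to -0.02, adjusted p = 0.170), both between values that were under 4 on all 4 arrays.

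**Figure D2:**
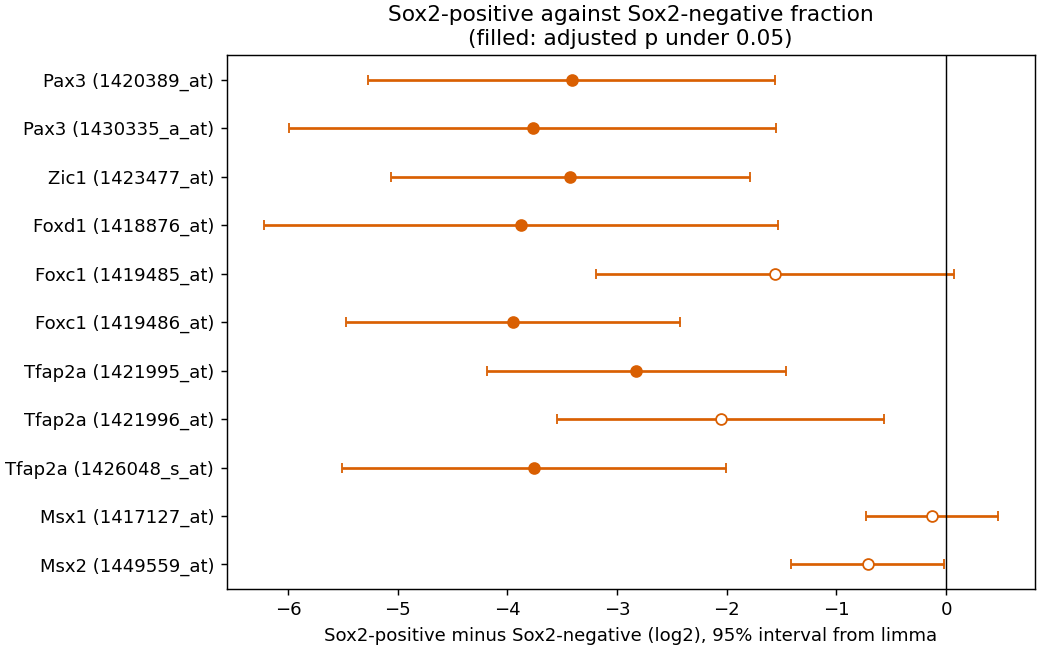
Difference between the Sox2-positive and Sox2-negative fractions (x axis, log2 units) for the 11 member probe sets tested (y axis), with 95% intervals from limma and filled points where the adjusted p was under 0.05. The 7 filled points lie between -3.95 and -2.83, and those of Msx1 and Msx2 lie at -0.13 and -0.71.

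These calls depend on the arrays in the fit, which pooled the spread over all 5 groups. With only the 4 compared arrays in the limma fit 0 of the 11 were called, where 321 of all 14012 probe sets were. At an unadjusted p under 0.05 in that fit there were 7, but all probe sets were not counted at that threshold. With array weights 1 was called, where 451 of all were. Leaving out 1 array leaves a fraction with 1 array, so member counts of those fits are not given. Member calls were lost without Sox2-positive replicate b or either Sox2-negative array, as were calls over all probe sets. The difference of Foxc1 by 1419486_at ran from -5.17 without Sox2-positive replicate a to -2.73 without replicate b. Without Sox2-positive replicate b the difference of Foxd1 shrank from -3.88 to -1.88 and that of Pax3 from -3.77 to -1.92 (1430335_a_at). With no filter on low values 4 were called (1413 of all 20380 probe sets), and with quantile normalization 5 (1780 of all 14012). All 11 differences were negative under every one of these settings, except that of Msx1 (1417127_at) without Sox2-negative replicate b. This sign was largely fixed in advance. The differences with only the 4 compared arrays, with array weights and with no filter were those of the main fit. Where the arrays of the fractions did not overlap, leaving out 1 array could not turn the sign.

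The Sox2-positive replicates did not agree on these genes. Replicate a exceeded replicate b for 12 of the 12 member probe sets. The gap was 4.01 log2 units for Foxd1, or 16.1-fold, and 0.0928% of the 14012 probe sets had a gap at least as wide on these arrays. Pax3 had gaps of 3.70 (0.136% of all) and 3.04 (0.435%), Zic1 of 2.70 (0.678%), Foxc1 of 2.45 (0.992%) and 1.11 (10.8%), and Tfap2a of 2.88, 2.42 and 1.84 (0.535%, 1.06% and 2.44%). Msx1 and Msx2, which were dim, had gaps of 0.14 to 0.79. Over the 11 probe sets that passed the filter the median gap was 2.45, against 0.39 over all probe sets, and 7 of the 11 had replicate a more than 2 units above b, against 1.23% of all (172 probe sets). Over all probe sets replicate a was above b for 48.1%.

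The members' gaps were narrower in the other groups. In the Sox2-negative fraction their median gap was 0.54 (0.42 over all probe sets), with replicate a above b for 2 of 11, and the widest was 2.73 (Foxc1 by 1419485_at, at 2.87 and 5.60). In the day 32 sample it was 0.68, wider than the 0.28 over all, and replicate a was above b for 9 of 11, against 44.7% of all, with a widest gap of 1.70 (Pax3 by 1430335_a_at). A lean to replicate a was thus present in the day 32 sample too. The median gap was 0.36 in iPSC in 2i/serum (0.25 over all) and 0.23 in iPSC with MEFs (0.26). Set against the Sox2-negative mean on the linear scale, Sox2-positive replicate a held 26.4% and 26.9% of the Pax3 signal, 23.7% of that of Zic1, 27.3% of that of Foxd1, 15.1% of that of Foxc1 (1419486_at) and 20.0% to 55.7% of that of Tfap2a. Replicate b held 2.03% and 3.27% for Pax3, 3.65% for Zic1, 1.69% for Foxd1, 2.77% for Foxc1 and 2.72% to 10.4% for Tfap2a. Both replicates were thus below the Sox2-negative mean for each of these genes, and the size of the deficit was set by the replicate.

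**Figure D3:**
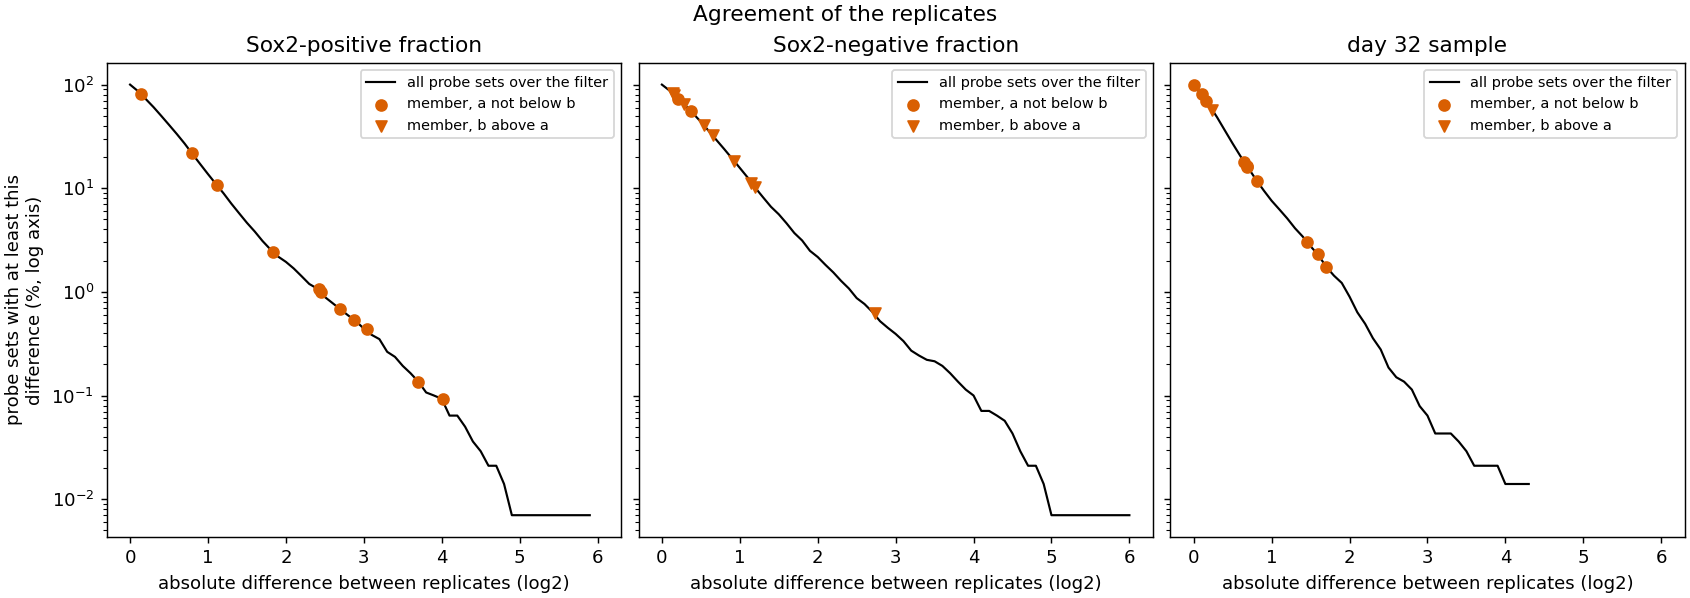
Share of all 14012 probe sets with at least a given absolute difference between replicates (line, log axis in percent) against that difference (x axis, log2 units), for the Sox2-positive fraction, the Sox2-negative fraction and the day 32 sample. Member probe sets are marked on the line by their own gap, as circles where replicate a is not below b. In the Sox2-positive panel 7 members lie beyond a gap of 2, up to 4.01, and all 11 are circles.

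Over all probe sets called between the fractions, replicate a was above b more often among those called lower than among those called higher. Of the 711 probe sets called lower in Sox2-positive cells, 67.2% had replicate a above b, with a median of a minus b of 0.25. Of the 867 called higher 34.7% did, with a median of -0.20. These medians are signed and cannot be set against the absolute gaps given above. The calls were made on the same arrays, favour a small spread between replicates, and describe these arrays only. Sox2 read 9.46 in replicate a and 10.45 in b, and the mean of 12 naive pluripotency genes was 9.33 in a and 9.51 in b, against 4.59 and 4.98 in the Sox2-negative fraction. Of the 10 genes of all the lists described here that were called lower in the Sox2-positive fraction, 7 had replicate a above b there and 3 had it below, and 3 had it above by over 1 unit. The neuronal gene Map2 read 4.42 in a and 3.01 in b, and the neurofilament gene Nefl 7.73 and 6.98. The fibroblast gene S100a4 read 2.48 and 2.18, and the stress keratin Krt6b 2.19 and 3.25. A share of 7 in 10 is near the 67.2% of all probe sets called lower, and nothing is read from it. Of these 10 genes, Lef1, Tfap2d, S100a4, Krt6b, Krt14, Fabp7 and Elavl4 were under 4 on both Sox2-positive arrays, which leaves no measured gap. The part of the list genes in the members' gap was not tested.

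The day 32 sample could be set against a fraction only across the array classes. It was above the Sox2-positive fraction at an adjusted p under 0.05 for 8 of the 11 member probe sets and below it for 0, where 71.6% of all probe sets were called and 61.2% were called higher, around a median difference of 1.27. Zic1 had the widest difference at 5.87 (10.42 against 4.55, adjusted p = 1.14e-04), followed by Pax3 at 4.64 by 1420389_at (adjusted p = 8.19e-04). The other Pax3 probe set differed by 0.77 (95% interval -1.45 to 2.99, adjusted p = 0.497) and Foxd1 by 1.91 (-0.43 to 4.25, adjusted p = 0.125). Foxd1 turned to -0.095 without Sox2-positive replicate b, and was called at 3.92 without replicate a. A share of 8 in 11 is near the background, and nothing is read from it. With each array centred on its median 3005 probe sets were called higher and 4020 lower in this comparison, against 8577 and 1450 as deposited, and 4 members were called higher and 0 lower.

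Against the Sox2-negative fraction the members went both ways, with 3 of 11 called higher and 3 lower in the day 32 sample, where 72.3% of all were called, 61.9% higher and 10.4% lower. Higher in the day 32 sample were Zic1 (2.44, adjusted p = 0.0131), Foxc1 by 1419485_at (2.04, adjusted p = 0.0292) and the dim Msx1 (0.70, adjusted p = 0.0388). Lower were Pax3 by 1430335_a_at (-3.0, adjusted p = 0.0205), Foxc1 by 1419486_at (-2.02, adjusted p = 0.0226) and Tfap2a by 1421995_at (-2.14, adjusted p = 0.0102). Foxc1 was thus called in both directions by its 2 probe sets. With median centring 0 were called higher and 5 lower, with 3067 probe sets higher and 3955 lower in all, against 8673 and 1464 as deposited. Leaving out 1 array left a group with 1 array, so member counts of those fits are not given, but each fit lost some member calls. Over those fits Zic1 ran from 2.095 to 2.785, Foxc1 by 1419485_at from 0.67 to 3.4 and Msx1 from 0.43 to 0.97. Pax3 by 1430335_a_at ran from -3.85 to -2.15, Foxc1 by 1419486_at from -2.61 to -1.42 and Tfap2a by 1421995_at from -2.715 to -1.565.

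Probe sets of the same gene stood differently to each other in the day 32 sample and in the fractions. Pax3 read by 1420389_at minus 1430335_a_at was 2.21 and 2.45 on the 2 arrays of the day 32 sample, against -1.63 and -2.16 in the Sox2-negative fraction and -1.87 in Sox2-positive replicate a. In Sox2-positive replicate b 1420389_at was under 4, which leaves no measured gap. The Foxc1 gap (1419485_at minus 1419486_at) was -0.72 and -0.82 in the day 32 sample and -4.05 in Sox2-negative replicate b, the only array of the fractions with both probe sets above 4. For Tfap2a, 1421995_at minus 1426048_s_at was -3.30 and -3.46 in the day 32 sample and between -1.98 and -0.02 in the fractions. The 5' control probe set of Actb read 8.34 to 9.52 in the array class of the day 32 sample and 11.29 to 12.09 in that of the fractions, and group and class cannot be told apart here. For Pax3 and Foxc1 the sign of the difference between the day 32 sample and the Sox2-negative fraction depended on the probe set read, although that of Pax3 by 1420389_at (1.23, adjusted p = 0.202) missed the threshold. All 3 Tfap2a probe sets were lower in the day 32 sample, of which only 1421995_at was called.

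**Figure D4:**
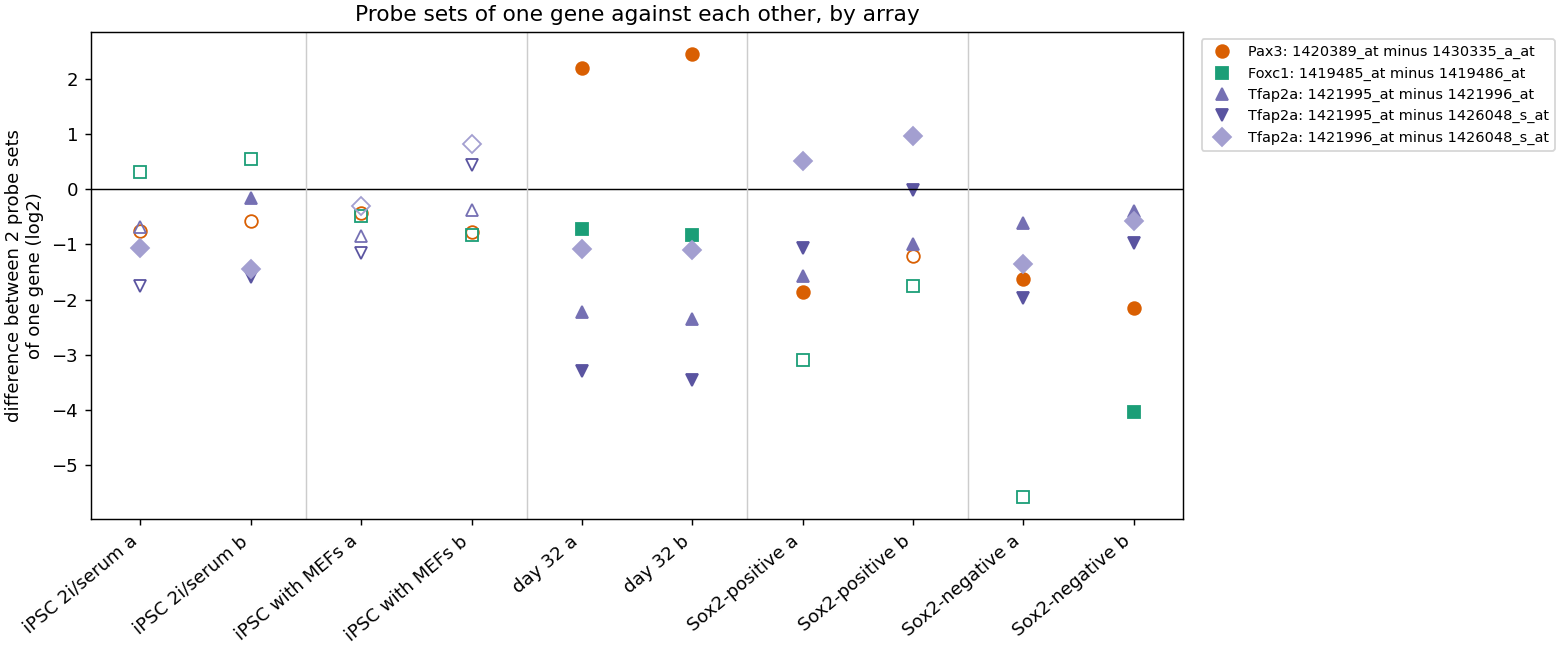
Difference between 2 probe sets of one gene (y axis, log2 units) on each of the 10 arrays (x axis), for Pax3, Foxc1 and the 3 pairs of Tfap2a. Open markers have at least 1 of the 2 probe sets under 4 and give no measured gap. Among filled markers, those of Pax3 are at 2.21 and 2.45 in the day 32 sample and below 0 in the fractions, and those of Foxc1 are at -0.72 and -0.82 in the day 32 sample and at -4.05 in Sox2-negative replicate b.

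Among the other genes of the neural plate border and crest, limma called none lower in the Sox2-positive fraction, where 5.07% of all probe sets were. At an unadjusted p under 0.05 there were 3 lower, but all probe sets were not counted at that threshold. Id2 and Prrx1 had negative differences that missed the threshold for a call. Of 33 listed genes 29 were on the array, and 19 had a probe set over the filter. In the Sox2-positive fraction 2 of the 19 were called higher and 0 lower, around a median of -0.11. Mycn, a transcription factor of the MYC family, was higher by 4.39 (9.23 and 9.55 against 5.21 and 4.80, adjusted p = 6.37e-04). Mitf, the pigment cell regulator, was higher by 3.97 (5.47 and 7.08 against 2.65 and 1.97, adjusted p = 0.00864), and was highest in iPSC in 2i/serum, at 9.92 and 10.08. The crest regulators Sox9 and Sox10, the border gene Pax7 and the crest receptors Ednrb and Ret were among 9 listed genes under 4 on every array. The epithelial-to-mesenchymal factors Snai1, Snai2 and Twist1 had differences of -0.45, -0.97 and -0.11 (adjusted p = 0.221, 0.150 and 0.891). Picked after their values were seen, Id2 and Prrx1 were the 2 of the 19 in which Sox2-positive replicate a exceeded b by over 2 units. Over all probe sets 1.23% did. Id2, an inhibitor of helix-loop-helix factors, read 8.17 and 5.18 there and 9.72 and 9.09 in the Sox2-negative fraction, a difference of -2.73 (adjusted p = 0.0541). Prrx1, a homeobox gene of limb and face mesenchyme, read 5.30 and 1.96, and 8.42 and 4.46 (-2.81, adjusted p = 0.199). Its Sox2-positive replicate b was thus under 4, and its replicates were also far apart in the Sox2-negative fraction, unlike those of most members.

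**Figure D5:**
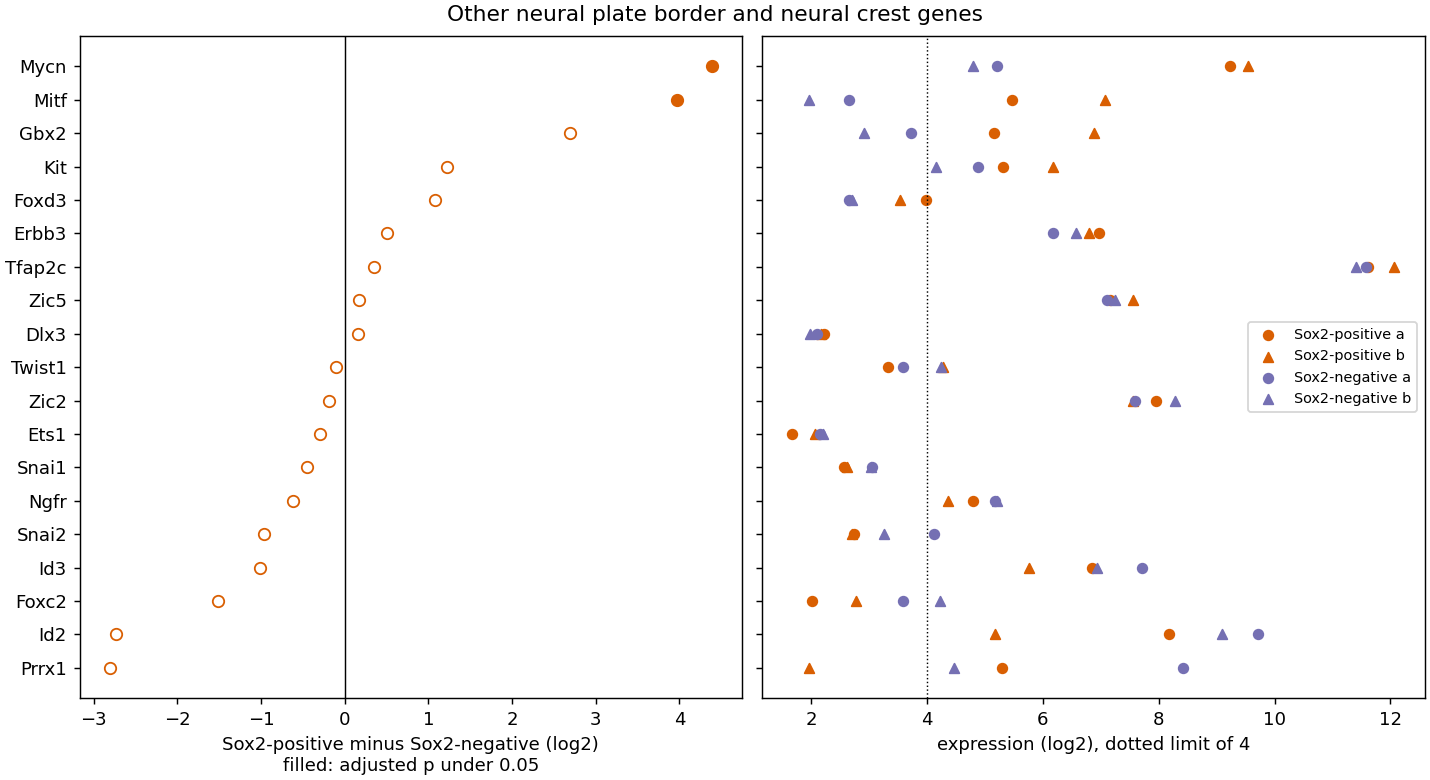
The 19 other border and crest genes over the filter, with the difference between Sox2-positive and Sox2-negative fractions on the left (log2 units, filled where the adjusted p was under 0.05) and the 4 values behind it on the right (circles replicate a, triangles replicate b, dotted line at 4). Mycn at 4.39 and Mitf at 3.97 are the filled points, and Id2 and Prrx1 at the bottom show wide gaps between the Sox2-positive replicates. Prrx1 shows a wide gap between its Sox2-negative replicates too.

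Among 23 listed relatives of the members, 9 were tested, and 0 were called higher and 2 lower in the Sox2-positive fraction (median -0.19). Dlx2, a homeobox gene of crest in the branchial arches, was lower, at -2.80 (4.93 and 3.90 against 6.10 and 8.32, adjusted p = 0.0261), and Tfap2d at -2.66 (2.44 and 2.64 against 3.90 and 6.50, adjusted p = 0.0344). The neighbours in the Zic family did not share the pattern of Zic1, since Zic2 differed by -0.19 and Zic5 by 0.18 between the fractions (adjusted p = 0.802 and 0.766) and both were above 6 on all 10 arrays. Tfap2c, a relative of Tfap2a, was between 11.40 and 12.45 on every array. Of the signals that act at the border 10 of 17 listed genes were tested, 1 was called higher and 1 lower around a median of -0.07. They were the BMP and TGF-beta inhibitor Smad7 (1.35, adjusted p = 0.0473) and the Wnt effector Lef1 (-2.70, adjusted p = 0.0161). Lef1 read 3.46 and 1.81 in the Sox2-positive fraction, both under 4, which leaves no measured gap.

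Most of the listed markers of muscle, pigment cells and glia on the array were under 4 on every array, against a minority in each other list of cell type markers. Of 12 listed genes of paraxial mesoderm and muscle, where Pax3 is also used, 9 were under 4 on every array, with Tbx6, Myf5 and Myod1 among them. Of the 2 tested, Tcf15 was higher in the Sox2-positive fraction (3.27, adjusted p = 0.0134). The melanocyte genes Tyr, Tyrp1 and Dct and the glial genes Sox10, S100b and Gfap were under 4 on every array, and each of these lists had 2 genes tested, with Mitf called higher and Fabp7 lower (-3.01, adjusted p = 5.75e-04). In the neural progenitor list 2 of 6 were called higher in the Sox2-positive fraction, Otx2 (3.51) and Olig2 (1.62), and 1 lower, Fabp7. In the neuron list 3 of 9 were called lower and 0 higher, namely Elavl4 (-2.56), Nefl (-2.21) and Map2 (-1.81). In the fibroblast list 1 of 7 was called lower, S100a4 (-4.56), with Dcn, Lum and Postn under 4 on every array, and the list's mean was 4.11 and 4.36 in the Sox2-negative and 2.53 and 2.67 in the Sox2-positive fraction. In the list of surface and squamous epithelium, where Tfap2a is also used, 2 of 6 were called lower, Krt6b (-7.01) and Krt14 (-0.83, under 4 on all 4 arrays), with Krt5 and Trp63 under 4 on every array and means of 5.57 and 5.66 against 4.05 and 3.80. The 12 naive pluripotency genes were all called higher, by a median of 4.79. The pluripotency genes thus went the other way from the members. The means of the fibroblast, squamous, neuron and glial lists were lower in the Sox2-positive fraction, as the members were. They were 4.74 and 4.22 against 5.09 and 5.06 for neurons, and 4.51 and 4.50 against 5.77 and 5.74 for glia. The glial mean rests on 2 genes that went opposite ways. Fabp7 was lower, while Erbb3 read 6.97 and 6.80 against 6.17 and 6.58 (0.51, not called). The means of the melanocyte and muscle lists were higher there, and that of the neural progenitor list was under 4 on all 4 arrays (3.10 to 3.67). The part of these cell types in the members' difference was not tested.

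The genes with the most similar pattern over the 10 arrays, by Pearson's r among probe sets with a range of at least 2 log2 units, included other members. The brightest Pax3 probe set was most like Foxd1 (r = 0.983), Anxa8 (0.978) and Slco5a1 (0.976). Foxd1 was most like Ptprz1 (0.985), Pax3 (0.983) and Ces2g (0.981), and Zic1 most like Pax3 by its other probe set (0.983), Irf2 (0.978) and Nr2f2 (0.977). Foxc1 was most like Nfix (0.977), Anxa8 (0.973) and Mobp (0.972), and Tfap2a most like Riox2 (0.986), Ang and Hmga2 (0.981 each). The dim Msx1 was most like Cyb5d1 (0.993), Lin37 and Ccnh, and Msx2 most like Gosr1 (0.983), Kctd10 and Gatc. These values describe 10 arrays that share groups, amplification and array class, and are given with no p. Several members were chosen for being dim in iPSC and on at day 32 on these same arrays. A high r between members therefore follows in part from the choice and is no evidence that they are regulated together.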

How the data were processed

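The deposited series table was used without change. It holds log2 expression values that the authors made with GCRMA and the affy package, per the submitters' processing notes, with no version stated there. Per the labels' protocols, Trizol RNA was amplified with either of 2 NuGEN kits.

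Of 22690 probe sets, 64 were controls and 20380 of the others carried a single gene symbol in the platform annotation. Those above 4 on at least 2 arrays (14012) were tested. Limma 3.58.1 in R 4.3.3 fitted 1 model to all 10 arrays with a mean per group. P-values were moderated by empirical Bayes (5 residual and 4.24 prior degrees of freedom), tested two-sided and adjusted by Benjamini-Hochberg over the 14012. A fold is given against 4 where both arrays of the lower group were under 4. On simulated arrays of the fraction comparison (14012 probe sets), limma recovered 5.97% of probe sets changed by 1 log2 unit, 73.1% by 2 and 98.5% by 4. Precision is limited by having 2 arrays a group.

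The members, gene lists, comparisons and alternatives were chosen with earlier results of these data known. Lists were described by the brightest kept probe set of each gene, naming called genes in order of p, up to 8 a list, or the 2 of lowest p. Of the pluripotency list the count, median and mean are given. Outside this rule, Snai1, Snai2, Twist1, Zic2, Zic5, Tfap2c, Id2, Prrx1 and the genes under 4 on every array were named after their values were seen. The 3 most similar genes per member were named by Pearson's r. Figures were drawn with matplotlib 3.10.9.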

Additional observations from a re-analysis of the deposited data

How the results depend on the processing

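Of 14012 probe sets, 1578 were called between the Sox2 fractions. The count was 321 with only the 4 compared arrays, 451 with array weights, and 649 to 1668 on leaving out an array. For the day 32 sample against the Sox2-positive and Sox2-negative fractions, 1 probe set a gene gave 6263 and 6404 calls among 8599 tested, against 10027 and 10137 among 14012. Over all alternatives, the members gave 126 values between the fractions, of which 91 kept direction and side of the threshold, 32 lost the call, 2 gained it and 1 turned. For the day 32 sample these were 95, 17, 3 and 11 against the Sox2-positive fraction, and 93, 23, 3 and 7 against the Sox2-negative fraction. A dim limit of 5 or 6 in place of 4 gave 11 member probe sets dim on every iPSC array in place of 7. The replicate gap in the Sox2-positive fraction was 2.76 with quantile normalization.

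Median centring turned the day 32 minus Sox2-positive difference of Pax3 (1430335_a_at) to -0.59, Tfap2a (1421995_at) to -0.68, Msx1 to -0.53 and Msx2 to -0.14. Quantile normalization gave -0.56 and -0.50 for the former pair and -0.044 for Msx1. Against the Sox2-negative fraction, centring gave -0.11 for Pax3 (1420389_at), -0.64 for Msx1 and -0.83 for Msx2, and quantile normalization -0.25 for Msx1 and -0.44 for Msx2. Over the arrays left out, the day 32 minus Sox2-positive difference ran from -1.08 to 2.62 for that Pax3 probe set, -0.24 to 1.60 for Tfap2a and -0.10 to 3.92 for Foxd1, and from 0.75 to 0.91 for Msx1 and 0.82 to 1.61 for Msx2. Against the Sox2-negative fraction it ran from 0.49 to 1.96 for Pax3, -0.56 to 0.09 for Tfap2a (1426048_s_at), -0.83 to 0.10 for Tfap2a (1421996_at), 0.43 to 0.97 for Msx1 and 0.36 to 0.64 for Msx2. The Msx1 difference between the fractions ran from -0.40 to 0.14. The causes were not tested. Whether the replicate letters pair the samples was not settled. The correlation of deviations was 0.0547 between the fractions, and 0.308 and 0.197 between the day 32 sample and the Sox2-positive and Sox2-negative fractions. A replicate block gave 1747 calls between the fractions and 7 member calls, as without it. For the day 32 sample it gave 10082 and 10213 calls against these fractions. Member calls were again 8 higher against the Sox2-positive fraction, and 3 higher and 3 lower against the Sox2-negative fraction.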
